A study of Mus musculus with 22 samples.

Results

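Untreated mouse embryonic stem (ES) cell clones edited by CRISPR-Cas9 were compared by RNA-seq in 7 of the 22 libraries of the series, chosen by their titles. Of these, 3 are Dux-KO clones (15, 22 and 52) and 4 are Dux (n=1) clones (17, 22, 31 and 40), titled Duxnto1 and read here as carrying a single Dux copy. Each line was sequenced once, so clone, culture and library cannot be told apart. The study asks whether duplication of the Dux cluster is needed for full activation of genes of the 2-cell embryo. The series also holds 3 untreated E14 ES cell libraries and 12 libraries of WT, Dux-KO22 and Dux-N22 cells kept for 3 days with DMSO or with GSK-3484862, which degrades the DNA methyltransferase DNMT1, with 2 libraries per combination. All cells were grown with fetal bovine serum and LIF, and the edited groups are both clonal lines. The dose of GSK-3484862 is given differently in 2 places of the labels and is not used here. The treated libraries titled Dux-KO22 were taken to come from the Dux-KO 22 clone, and those titled Dux-N22 from the Dux n=1 22 clone.

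The double homeobox transcription factor DUX switches on genes of the 2-cell embryo, among them the Zscan4 family, in the few ES cells that enter a 2-cell-like state. ES cells in serum and LIF are a mixed population in which Nodal signalling, formative priming and germline genes vary from cell to cell. A line grown from 1 cell can also carry its own chromosome changes and keep its own expression state, so clones of 1 genotype can differ. In bulk libraries, fewer cells in a state and less RNA per cell cannot be told apart.

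Depth was even, at 15803194 to 19384356 counts per edited library. Mitochondrial genes took 2.03% to 2.60% of the counts in the edited libraries and 2.75% to 2.99% in E14. The 10 ES cell markers listed, the defining genes of the labelled cell type, were all measured, and 0 of 10 varied past the threshold used below. Levels are CPM, counts scaled to library size, here by the trimmed mean of M values (TMM). All 10 ES cell markers lay above 100 CPM in the clones, and 2.65% of all genes at 100 CPM or more varied past that threshold. Of 11 fibroblast (feeder) markers 3 reached 5 CPM (Fn1, Vim and Thy1) and 2 were at 0 in all 7 clones. The list summed to 1024 to 1755 CPM in the clones and 924 to 1019 CPM in E14, and its part in the results was not tested.

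The targeted gene and its targets were counted first. Duxf3, the annotated Dux gene, had 0, 5 and 1 counts in the libraries labelled Dux-KO 15, 22 and 52. In the Dux n=1 libraries labelled 17, 22, 31 and 40 it had 1, 3, 0 and 1 counts, and in E14 1, 0 and 0. Multi-mapping reads were not counted, so this repeated gene checks nothing at these counts. The Zscan4 family summed to 5, 49 and 22 counts in the 3 Dux-KO libraries, 38, 51, 12 and 5 in the 4 Dux n=1 libraries, and 92, 92 and 86 in E14. The groups overlapped, with the library labelled Dux-KO 22 nearly as high as the highest Dux n=1 library and the library labelled Dux n=1 40 as low as Dux-KO 15. With DMSO the same clone names gave 0 and 0 counts (Dux-KO22) and 38 and 47 counts (Dux-N22).

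The libraries labelled Dux-KO 22 and Dux n=1 40 went against their labels in further measures. The difference between Dux-KO22 and Dux-N22 with DMSO was set against the difference of each of the 12 pairs of an untreated Dux-KO and an untreated Dux n=1 library, over the 763 genes that varied between clones. The pair that shares both clone names (22 and 22) gave r = 0.402 across genes, below 3 other pairs. Dux-KO 52 with Dux n=1 22 gave 0.825, Dux-KO 52 with Dux n=1 17 gave 0.695, and Dux-KO 15 with Dux n=1 22 gave 0.521. The pair of Dux-KO 22 with Dux n=1 40 gave -0.742. These correlations are descriptions, since the pairs share libraries and the genes were chosen for varying in them.

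Levels gave a like picture. Over 351 genes at least 2-fold apart between Dux-KO22 and Dux-N22 with DMSO, the library labelled Dux-KO 22 was nearer to Dux-KO22 for 138 and the library labelled Dux n=1 40 for 320. The counts were 219 for Dux-KO 15, 323 for Dux-KO 52, 101 for Dux n=1 17, 14 for Dux n=1 22 and 237 for Dux n=1 31. The E14 libraries, which carry neither edit, were nearer to Dux-KO22 for 203 to 215 of these genes. Fold limits of 2, 4, 8 and 16, each with and without a test call, were tried after the data were seen. At 4-fold, 31 genes were left, of which 8 were nearer to Dux-KO22 in the library labelled Dux-KO 22 and 29 in that labelled Dux n=1 40. At 8-fold only 4 genes were left and at 16-fold 0, too few to describe. Htra1, a secreted serine protease, had 34.2 and 35.6 CPM in the Dux-KO22 DMSO libraries, 8.17 CPM in the library labelled Dux-KO 22 and 34.5 CPM in that labelled Dux n=1 40.

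Another measure was less clear. Differences of each untreated clone from E14 were correlated with differences of Dux-KO22 and Dux-N22 from WT with DMSO over the variable genes. The library labelled Dux n=1 40 gave r = 0.291 with Dux-KO22, the highest of the 7, and that labelled Dux-KO 22 gave -0.225. Dux n=1 22 gave -0.517 with Dux-N22, its own name, so this measure did not match a clone to its own name where the nearness of levels did. Whether the labels of these 2 libraries were exchanged was not tested, and no library was reassigned. An exchange would change the members of both genotype groups, so every mean and difference of Dux-KO and Dux n=1 below holds for the groups as labelled. The main counts are given with and without both libraries.

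No gene was called between the genotypes. Of 14550 genes tested with edgeR's quasi-likelihood test, 0 passed a Benjamini-Hochberg adjusted p of 0.05 (0.0% of genes tested), and 418 (2.87%) had an unadjusted p under that value. DESeq2 called 2 genes, both lower in Dux n=1. These were Rn7sk and Rpph1, the small RNAs of the 7SK particle and of RNase P. Rn7sk fell by 4.33 on the log2 scale (SE 0.674) in the edgeR fit, where its adjusted p was 0.999, and DESeq2 gave an adjusted p of 2.27e-05. Rn7sk lay at 4.33 CPM ± 3.50 (SD, n = 3) in Dux-KO and 0.205 ± 0.105 (SD, n = 4) in Dux n=1. The E14 libraries, which share 1 label, had 52.2, 1.82 and 68.0 CPM of Rn7sk, a wider spread than the difference between the edited groups.

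Among the other genes of smallest p, none called by edgeR, Mphosph8 encodes a reader of methylated histone H3 in the HUSH silencing complex. Mphosph8 had 27.0 CPM ± 2.19 (SD, n = 3) in Dux-KO and 41.0 ± 3.47 (SD, n = 4) in Dux n=1, a log2 difference of 0.59 (SE 0.131, edgeR adjusted p = 0.999). Hsp90b1, the chaperone of the endoplasmic reticulum, gave 328 and 452 CPM and Akap9, a centrosomal scaffold, 16.1 and 27.9 CPM in Dux-KO and Dux n=1. Zfp960, a zinc-finger gene, gave 5.56 and 10.1 CPM and Nanp 0.284 and 1.57 CPM in the same order. Others were lower in Dux n=1: Rusc2 gave 62.1 and 44.4 CPM, Hist4h4 0.976 and 0.345 CPM, and Slc38a8 1.27 and 0.453 CPM, in that order. Without the libraries labelled Dux-KO 22 and Dux n=1 40, edgeR again called 0 genes, with 1295 at an unadjusted p under 0.05 and a smallest adjusted p of 0.255. Leaving out Dux-KO 22 alone gave 0 calls and 1115 genes at that unadjusted p. The genotype label accounted for a median of 8.81% of the variance of variable genes over 7 libraries. This share was 31.6% without the libraries labelled Dux-KO 22 and Dux n=1 40, and 5.76% without Dux-KO 15 and Dux n=1 22, each over 5 libraries. Over all measured genes the same medians were 9.56%, 23.0% and 13.4%. The libraries labelled Dux-KO 22 and Dux n=1 40 were picked for going against their labels in these same data. A rise without them, in this share or in genes of small unadjusted p, was therefore partly built in. With fewer libraries the share that arises by chance is also larger. No conclusion on genotype is drawn from these values.

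Variation between single clones was larger. It was measured as the SD of log2(CPM + 0.5) over the 7 libraries for the 10211 genes with a mean of 5 CPM or more, and a gene with an SD of 0.5 or more is called variable. By this rule 763 genes (7.47%) were variable and 30 had an SD of 1 or more. The highest and lowest clone were at least 2-fold apart for 2107 genes (20.6%) and at least 4-fold apart for 206. The gene just inside the threshold had an SD of 0.5001 and the gene just outside 0.4998. The median SD within genotype groups was 0.221, against 0.0788 over the 3 E14 libraries, a ratio of 2.80, and 26 genes (0.255%) reached the threshold in E14. The genotype groups did not overlap for 53 of the variable genes and for 613 of all measured genes (6.0%).

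Counting error was smaller than these values. Genes of 5 to 20 CPM had a median SD of 0.296 between clones and 0.120 between E14 libraries, where counting alone at their median of 205 counts gives 0.101. At 100 CPM and above the medians were 0.175 and 0.0540. Klf16, a zinc-finger factor at the median of variance, ranged from 72.6 to 117 CPM.

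Dux-KO 15 and Dux n=1 22 stood apart from the other 5 clones. Dux-KO 15 was the clone farthest from the median of the 7 for 334 variable genes (43.8%) and Dux n=1 22 for 255 (33.4%), while each of the others was farthest for 2.75% to 7.34%. Dux-KO 15 had 104 genes at least 2-fold above the median and 292 at least 2-fold below it, and Dux n=1 22 had 178 above and 114 below. The first principal component held 42.3% of the variance and set these clones, with scores of 32.9 and 22.2, against the other 5 (all below 0). The place of Dux n=1 22 depended on the genes and libraries used: with the 500 genes of largest variance, without Dux-KO 52, without the library labelled Dux n=1 40, or without both that and the library labelled Dux-KO 22, the clones with the farthest scores were Dux-KO 15 and Dux n=1 31. The second held 30.7% and set Dux-KO 15 (22.5) against Dux n=1 22 (-28.7). Without Dux-KO 15 and Dux n=1 22, 269 genes (2.66%) were variable, and without the libraries labelled Dux-KO 22 and Dux n=1 40, 1003 (9.77%). In Dux-KO 15 the departure from the median correlated with gene GC content (r = 0.26) and with log gene length (r = -0.31) across genes. With the GC trend removed 709 genes were variable, 677 of them among the 763. The part of gene length was not tested.

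**Figure D1:**
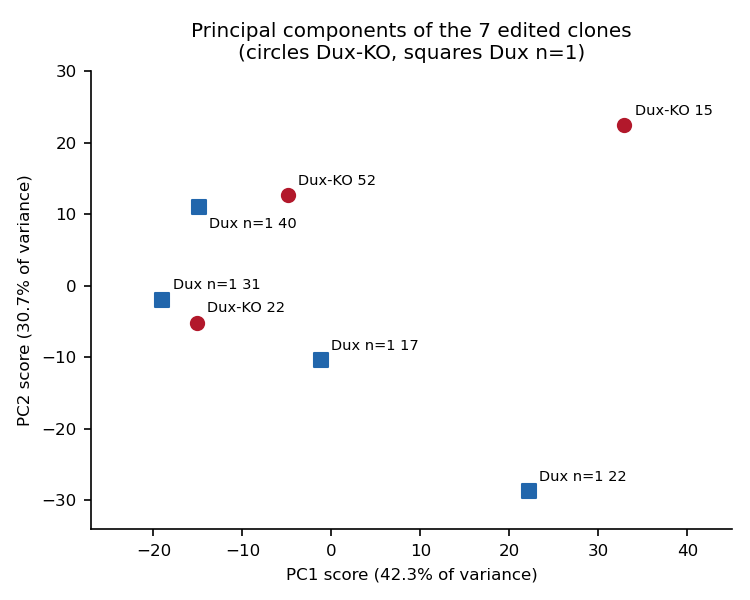
Scores of the 7 edited clones on the first and second principal components of log2(CPM + 0.5), with the percentage of variance on each axis; circles are Dux-KO and squares Dux n=1 libraries. Dux-KO 15 and Dux n=1 22 lie apart at 32.9 and 22.2 on the first component, and the genotypes are mixed among the other 5.

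Of the 25 named genes of largest variance, Dux-KO 15 was farthest from the median for 10 and Dux n=1 22 for 9. Aurkc, a kinase of meiotic chromosome segregation, had the largest SD of them (1.71). Its levels were 18.0, 4.99 and 2.33 CPM in the libraries labelled Dux-KO 15, 22 and 52, and 9.99, 15.0, 0.841 and 0.425 CPM in those labelled Dux n=1 17, 22, 31 and 40. Both genotypes held high and low clones. Klhl13, a ubiquitin ligase adaptor on the X chromosome, had 105, 43.8 and 18.1 CPM in the Dux-KO libraries and 164, 85.3, 15.5 and 17.8 CPM in the Dux n=1 libraries, in the same order. Esrp1, a splicing regulator of epithelial cells, had 3.25, 43.1 and 5.71 CPM in Dux-KO and 24.8, 32.2, 14.4 and 13.5 CPM in Dux n=1. The library labelled Dux-KO 22 was the highest for Esrp1 and Dux-KO 15 the lowest. Ptges, a prostaglandin E synthase, was highest in Dux-KO 15 (45.5 CPM) and lowest in the library labelled Dux-KO 22 (5.37 CPM).

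**Figure D2:**
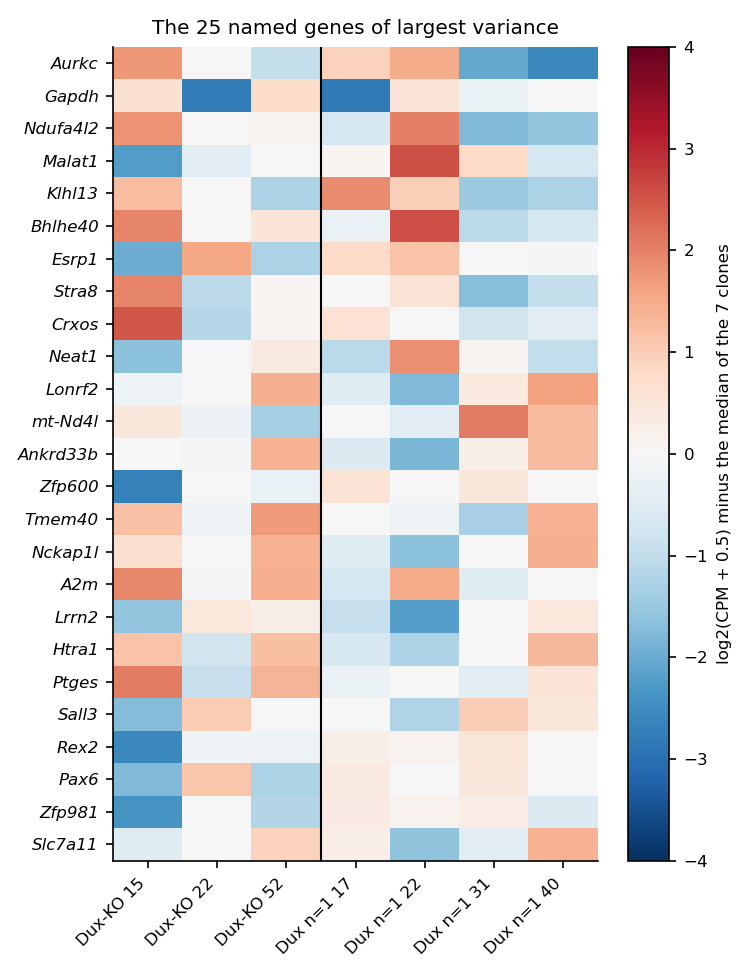
Heat map of the 25 named genes of largest variance (rows) in the 7 clones (columns), as log2(CPM + 0.5) minus the median of the 7 clones; a line parts Dux-KO from Dux n=1. Departures fall mostly in Dux-KO 15, farthest for 10 genes, and Dux n=1 22, farthest for 9.

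The list of hypoxia and glycolysis genes held the most variable members by count, though several shorter lists had larger shares. Cells short of oxygen stabilise hypoxia-inducible factor, which binds the motif ACGTG and raises genes of glycolysis, mitophagy and collagen hydroxylation. Of 32 measured members 10 were variable (31.2%, against 7.47% of all measured genes), 9 of them highest in Dux n=1 22. All 10 had Dux-KO 15 among their highest 2 clones. Of the 32 members, 28 were above the median of the 7 clones in Dux-KO 15 and 29 in Dux n=1 22, against 3 in each of the libraries labelled Dux n=1 31 and Dux n=1 40. With the GC trend removed 10 of 32 were again variable, against 6.94% of all measured genes. Without the libraries labelled Dux-KO 22 and Dux n=1 40 the count was 12 of 33, against 9.77% of all measured genes. Without Dux-KO 15 and Dux n=1 22 it was 4 of 30, against 2.66% of all measured genes.

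Promoter sequences are shown for the 5 variable hypoxia members whose 250 bases before the RefSeq transcription start (GRCm38.p6) held ACGTG on either strand. Capitals mark ACGTG or its reverse complement CACGT. Of 7 variable members with an entry 5 held it (71.4%), of 26 measured members 12 (46.2%), of all measured genes with an entry 23.1%, and of all 27025 entries 16.6%. Ndufa4l2, Bhlhe40 and Ndrg1 had no entry. None of the windows shown overlaps an annotated GENCODE exon, and a match is a description of the sequence only. The windows are Ddit4 at chr10:59951926-59951985 (minus strand), P4ha2 at chr11:54100818-54100877 (plus strand), Bnip3 at chr7:138909583-138909642 (minus strand), Egln3 at chr12:54204065-54204124 (minus strand) and P4ha1 at chr10:59323252-59323295 (plus strand).
Ddit4: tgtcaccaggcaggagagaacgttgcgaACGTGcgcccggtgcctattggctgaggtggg
P4ha2: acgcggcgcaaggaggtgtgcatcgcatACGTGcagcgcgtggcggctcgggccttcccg
Bnip3: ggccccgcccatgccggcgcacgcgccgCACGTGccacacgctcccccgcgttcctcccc
Egln3: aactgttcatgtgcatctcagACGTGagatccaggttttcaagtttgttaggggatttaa
P4ha1: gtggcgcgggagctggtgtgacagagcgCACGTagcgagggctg

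Ndufa4l2, which lowers respiratory chain activity in hypoxia, had 26.7, 7.40 and 8.04 CPM in the libraries labelled Dux-KO 15, 22 and 52 and 4.50, 31.5, 1.81 and 2.18 CPM in those labelled Dux n=1 17, 22, 31 and 40. E14 had 0.578 to 1.08 CPM. With DMSO, Dux-N22 had 27.2 and 25.1 CPM and Dux-KO22 1.60 and 2.87 CPM, while the WT libraries had 27.1 and 27.0 CPM. Low and high levels of Ndufa4l2 were thus both seen in unedited cells. Bhlhe40, a repressor of the circadian and hypoxic responses, had 47.6, 12.002 and 17.5 CPM in the Dux-KO libraries and 9.93, 73.8, 5.37 and 7.18 CPM in the Dux n=1 libraries.

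Bnip3, the mitophagy receptor whose promoter holds the palindrome CACGTG above, had 112, 46.7 and 47.0 CPM in Dux-KO and 49.6, 141, 32.3 and 28.0 CPM in Dux n=1. Ddit4, an inhibitor of mTORC1, had 197, 92.1 and 89.3 CPM in Dux-KO and 97.6, 303, 52.6 and 61.8 CPM in Dux n=1. P4ha2, a collagen prolyl hydroxylase, reached 13.9 CPM in Dux-KO 15 and 15.6 CPM in Dux n=1 22 and lay at 3.40 to 5.99 CPM in the other 5. Egln3, the oxygen-sensing hydroxylase that marks the factor for decay, had 49.9 and 50.7 CPM in these clones and 10.2 to 23.4 CPM in the other 5. Bnip3, Ddit4, P4ha2 and Egln3 were chosen after their values were seen. In each of them the same clones were high and did not overlap the rest. Other members, not variable, went the other way. Kdm3a was lowest in these clones, at 67.35 CPM in Dux-KO 15 and 91.0 CPM in Dux n=1 22, with 98.7 to 139 CPM in the other 5. Pgam1 was lowest in Dux n=1 22 (1082 CPM). Gapdh, also on the list, differed in another pattern, with 29.98 and 28.9 CPM in the libraries labelled Dux-KO 22 and Dux n=1 17 and 174 to 350 CPM in the other 5. Gapdh was uneven in E14 too (288, 238 and 126 CPM), and its reads are shared with near-identical pseudogenes, so its value is uncertain.

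**Figure D3:**
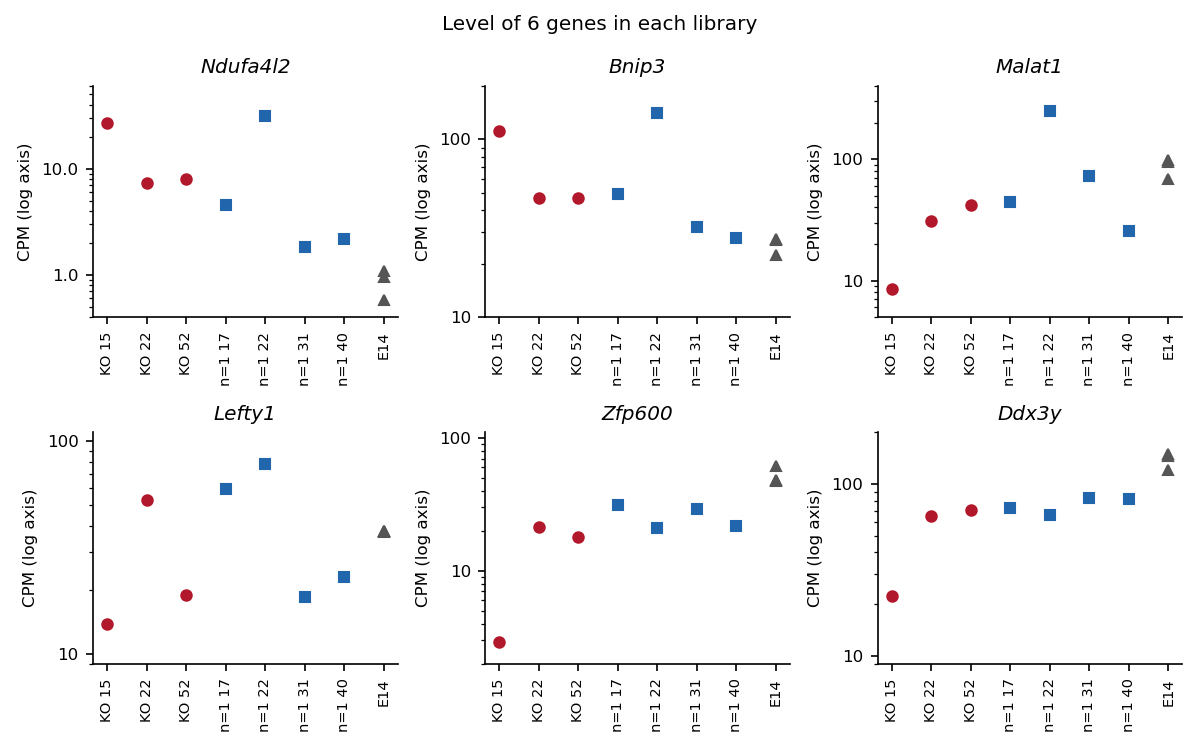
CPM (log axes) of Ndufa4l2, Bnip3, Malat1, Lefty1, Zfp600 and Ddx3y in single libraries; circles are Dux-KO, squares Dux n=1 and triangles the 3 E14 libraries. Ndufa4l2 and Bnip3 are high in Dux-KO 15 and Dux n=1 22, Malat1 ranges from 8.50 to 249 CPM, and Zfp600 and Ddx3y are low in Dux-KO 15 alone of the edited clones.

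A few nuclear long non-coding RNAs differed between Dux-KO 15 and Dux n=1 22. No list of such RNAs was counted, and the summed share of non-coding genes did not follow them, being highest in Dux-KO 52 (0.801% of counts) and lowest in Dux n=1 17 (0.501%). Malat1, an RNA of nuclear speckles, had 8.50, 31.2 and 42.2 CPM in the Dux-KO libraries and 44.5, 249, 72.8 and 25.7 CPM in the Dux n=1 libraries. Neat1, the scaffold of paraspeckles, ranged from 7.85 CPM in Dux-KO 15 to 92.4 CPM in Dux n=1 22. Firre, an X-linked nuclear RNA, had 9.35 CPM in Dux-KO 15, 66.3 CPM in Dux n=1 22 and 14.7 to 30.8 CPM in the other 5, and Snhg11 had 6.40 and 44.7 CPM in those clones. Firre and Snhg11 were chosen after their values were seen. The GC and length trends of Dux-KO 15 moved with them, and their part was not tested.

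Of 6 measured Nodal and Lefty genes 3 were variable (50.0%, against 7.47% of all measured genes). These were Lefty1, Lefty2 and Skil, each lowest in Dux-KO 15 and highest in Dux n=1 22. The other 3 did not follow this order: the coreceptor gene Tdgf1 was highest in Dux-KO 15 (1054 CPM), the inhibitor Smad7 was lowest in Dux n=1 22 (86.7 CPM), and Nodal itself had 55.8 and 56.2 CPM in these clones. Lefty1, a secreted Nodal antagonist, had 13.8, 52.995 and 18.98 CPM in the Dux-KO libraries and 59.7, 78.0, 18.6 and 22.9 CPM in the Dux n=1 libraries. Lefty2, its paralog, had 30.8, 85.2 and 34.6 CPM and 89.9, 113, 41.4 and 36.5 CPM. For both genes the libraries labelled Dux-KO 22, Dux n=1 17 and Dux n=1 22 were high and the other 4 low. Without the libraries labelled Dux-KO 22 and Dux n=1 40 the count was 3 of 6, and without Dux-KO 15 and Dux n=1 22 it was 2 of 6. In these settings 9.77% and 2.66% of all measured genes were variable, here and for the lists below. Over the 7 clones the share was 14.7% for genes of 5 to 20 CPM, and several of these lists are short.

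Formative and primed genes, which mark the exit from the naive state, held 4 variable members of 8 (50.0%, against 7.47% of all measured genes). Without the libraries labelled Dux-KO 22 and Dux n=1 40 the count was again 4 of 8. Zic2 had 9.85, 61.1 and 14.6 CPM in the Dux-KO libraries and 35.6, 26.4, 38.3 and 18.3 CPM in the Dux n=1 libraries. Otx2, a factor of the epiblast and forebrain, had 3.15, 9.32 and 2.22 CPM and 4.93, 9.20, 8.99 and 2.66 CPM. Lef1, a nuclear effector of Wnt signalling, ranged from 4.50 CPM in Dux-KO 15 to 28.4 CPM in the library labelled Dux-KO 22. The neural factor Pax6 was likewise lowest in Dux-KO 15 (2.40 CPM) and highest in the library labelled Dux-KO 22 (20.9 CPM). Other formative and primed members had other orders. Pou3f1, not variable, was lowest in the library labelled Dux-KO 22 (18.5 CPM) and highest in Dux-KO 52 (36.3 CPM). Foxd3, which was variable, was lowest in Dux n=1 22 (49.5 CPM) and had 192 CPM in Dux-KO 52. Of 7 BMP and Id genes 3 were variable (42.9%, against 7.47% of all measured genes). The count was 2 of 7 without the libraries labelled Dux-KO 22 and Dux n=1 40. Id2, an inhibitor of helix-loop-helix factors, had 2.40 to 11.7 CPM in the clones and 25.2 to 30.8 CPM in E14.

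Of 20 measured naive pluripotency genes 2 were variable (10.0%), a share near the 7.47% of all measured genes, and their median SD was 0.214 against 0.221 over all genes. Without the libraries labelled Dux-KO 22 and Dux n=1 40, 3 of 20 were variable. The variable members were Nr0b1 and Gbx2, both lowest in Dux n=1 22. Nr0b1, an orphan nuclear receptor, had 92.5 CPM there, 103 CPM in Dux-KO 15 and 186 to 261 CPM in the other 5. Cholesterol synthesis had 0 variable members of 19 (median SD 0.207) and ribosomal protein genes 2 of 76 (2.63%, median SD 0.145). Most ribosomal protein genes lay at 100 CPM or more, where 2.65% of all genes were variable, with a median SD of 0.175. Targets of p53 had 1 of 20 (5.0%), with a median SD of 0.298, above that of all genes. One gene of the 2-cell list reached 5 CPM, and it was not variable.

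The germline list had 4 variable members of 11 (36.4%, against 7.47% of all measured genes). The count was again 4 of 11 without the libraries labelled Dux-KO 22 and Dux n=1 40. Stra8 and Aurkc were highest in Dux-KO 15, Tex19.1 in Dux-KO 52 (178 CPM) and Meioc in Dux n=1 22 (16.6 CPM, against 4.85 CPM in Dux-KO 15). Stra8, the retinoic acid-induced gatekeeper of meiosis, had 81.9, 9.81 and 21.9 CPM in the Dux-KO libraries and 20.7, 30.5, 5.95 and 10.5 CPM in the Dux n=1 libraries, against 2.23 to 2.43 CPM in E14. Stra8 was higher in all 7 clones than in all 3 E14 libraries. Crabp1, a retinoic acid carrier, had 22.4 CPM in Dux-KO 15 and 5.50 to 14.4 CPM in the other clones. Meis2, a homeobox gene of the same list, had 4.65 CPM in Dux-KO 15 and was lowest in Dux n=1 22 (1.84 CPM). All 3 measured retinoic acid genes were variable, against 7.47% of all measured genes. All 3 were so without the libraries labelled Dux-KO 22 and Dux n=1 40, and 1 of 3 without Dux-KO 15 and Dux n=1 22. Rhox5, an X-linked reproductive homeobox gene, had 37.5 CPM in Dux-KO 15 and 6.52 to 17.6 CPM elsewhere.

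Of 5 measured primitive endoderm genes 2 were variable, Col4a1 and Col4a2 (40.0%, against 7.47% of all measured genes). The count was 3 of 5 without the libraries labelled Dux-KO 22 and Dux n=1 40. Col4a1, a collagen IV chain, had 41.0, 13.4 and 39.0 CPM in the Dux-KO libraries and 15.8, 10.8, 16.2 and 27.4 CPM in the Dux n=1 libraries. Cdx1, a caudal homeobox factor of the Wnt list and not of this one, had 25.1, 4.38 and 20.5 CPM and 4.75, 6.07, 6.27 and 12.8 CPM. For Col4a1 and Cdx1, Dux-KO 15, Dux-KO 52 and the library labelled Dux n=1 40 were the highest 3, and the library labelled Dux-KO 22 lay among the low ones. Of 6 measured Wnt genes 3 were variable (50.0%, against 7.47% of all measured genes). Lef1, also on the Wnt list, had another order, highest in the library labelled Dux-KO 22 (28.4 CPM) and lowest in Dux-KO 15 (4.50 CPM). Laminin genes of the primitive endoderm list, not variable, had other orders: Lamb1 was highest in Dux n=1 22 (101 CPM) and lowest in Dux-KO 52 (45.9 CPM), and Lama1 was lowest in Dux-KO 15 (88.3 CPM). With DMSO Col4a1 had 30.7 and 31.0 CPM in Dux-KO22. Without the libraries labelled Dux-KO 22 and Dux n=1 40 the log2 differences of these genes stayed uncalled, since that fit called 0 genes.

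Of 20 measured amino acid stress genes 3 were variable (15.0%, against 7.47% of all measured genes). The count was 2 of 20 without the libraries labelled Dux-KO 22 and Dux n=1 40. Ddit3, the CHOP factor of the unfolded protein response, had 32.3 CPM in Dux n=1 22 and 7.83 to 12.9 CPM in the other 6. Slc7a11, the cystine transporter, had 8.50, 12.002 and 23.4 CPM in the Dux-KO libraries and 14.7, 3.63, 8.66 and 32.2 CPM in the Dux n=1 libraries. Sesn2, also variable, had 157 CPM in Dux-KO 15, 170 CPM in Dux n=1 22 and 264 to 426 CPM in the other 5. The list did not follow Ddit3: its median shift from the clones' median was -0.175 log2 units in Dux n=1 22. Atf4 itself (302 CPM) and Chac1 (57.8 CPM) were lowest there. Of 7 measured interferon genes 3 were variable (42.9%, against 7.47% of all measured genes). The count was again 3 of 7 without the libraries labelled Dux-KO 22 and Dux n=1 40, and 0 of 7 without Dux-KO 15 and Dux n=1 22. Stat2, a transducer of interferon signals, was highest in Dux n=1 22 (58.7 CPM) and Dux-KO 15 (43.6 CPM), with 18.6 to 28.2 CPM in the other 5. Ddx58, the RNA sensor RIG-I, was lowest in the same clones, at 24.2 and 25.4 CPM, with 42.1 to 66.3 CPM in the others. Members of this list thus moved in both directions. Myc, a growth-promoting factor, had 52.3 CPM in Dux n=1 22, 73.5 CPM in Dux-KO 15 and 110 to 171 CPM in the other 5. Dnmt3l, a cofactor of de novo DNA methylation, had 208 CPM in Dux n=1 22 and 364 to 563 CPM in the other 6. Myc was among 2 variable immediate early genes of 12 (16.7%, against 7.47% of all measured genes). Dnmt3l was among 2 variable DNA methylation genes of 19 (10.5%). Without the libraries labelled Dux-KO 22 and Dux n=1 40 these counts were 4 of 12 and 3 of 19. With the GC trend removed they were 2 of 12 and 1 of 19.

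Of 16 mitochondrially encoded genes 6 were variable (37.5%, against 7.47% of all measured genes). The library labelled Dux n=1 40 was highest for 3 of them, and without the libraries labelled Dux-KO 22 and Dux n=1 40 the count was 3 of 16. Its mt-Atp6 level, for a subunit of ATP synthase, was 151 CPM, against 29.9 to 69.9 CPM in the other 6. The E14 libraries were uneven for this gene as well, with an SD of 0.49 on the log2 scale. Nuclear copies of mitochondrial DNA can take such reads, so these values are uncertain.

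**Figure D4:**
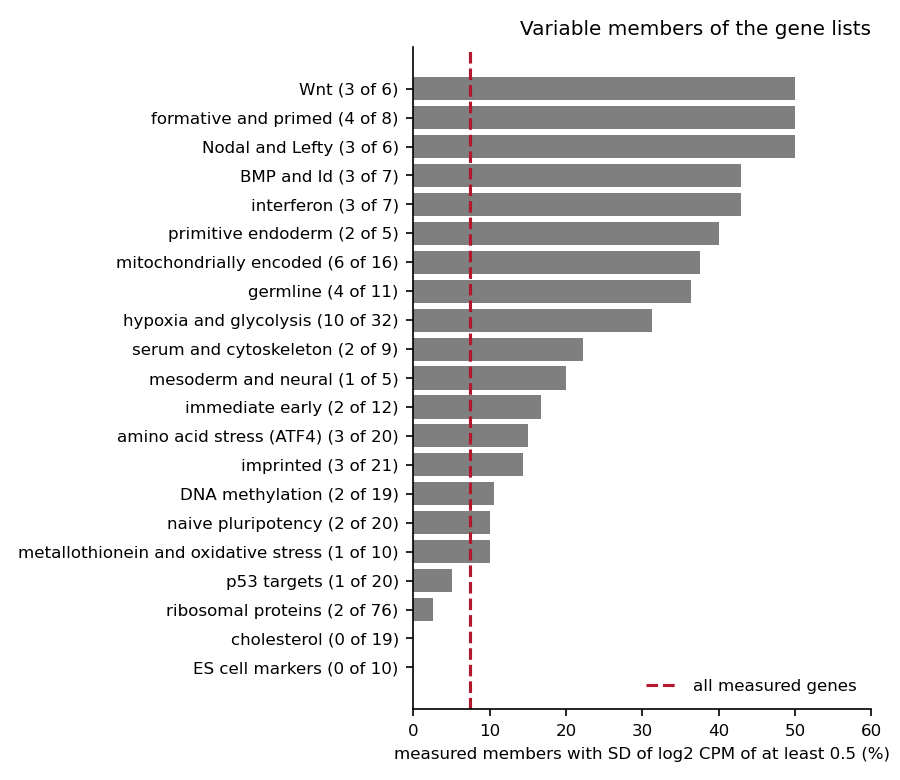
Percentage of measured members with an SD of log2(CPM + 0.5) of 0.5 or more over the 7 clones, for lists with 5 or more measured members; the dashed line marks 7.47% of all measured genes. Wnt, formative and Nodal lists reach 50.0% with few members, hypoxia and glycolysis 31.2% of 32, and ES cell markers and cholesterol genes 0. The dashed line is not matched to expression level: of genes at 100 CPM or more 2.65% were variable.

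Chromosomes held 3 further patterns. The first was on chromosome 6, whose 448 measured genes had a median shift from the median of the 7 clones of 0.18 log2 units in Dux-KO 15, 0.25 in Dux-KO 52 and 0.24 in the library labelled Dux n=1 40, and -0.09 to -0.06 in the other 4. The shift was seen from 0 to 50 Mb (0.33, 0.35 and 0.33) and from 100 to 150 Mb (0.31, 0.36 and 0.39), and was 0.00 to 0.05 from 50 to 100 Mb, bounds set after the values were seen. The Dux-KO22 DMSO libraries had medians of 0.49 and 0.58 above WT in the first stretch and 0.49 and 0.53 in the last, and Dux-N22 had -0.02 to 0.01 in both, and -0.15 in the middle. The untreated library labelled Dux-KO 22 had no such shift, at -0.15 and -0.13. Copy number was not measured.

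**Figure D5:**
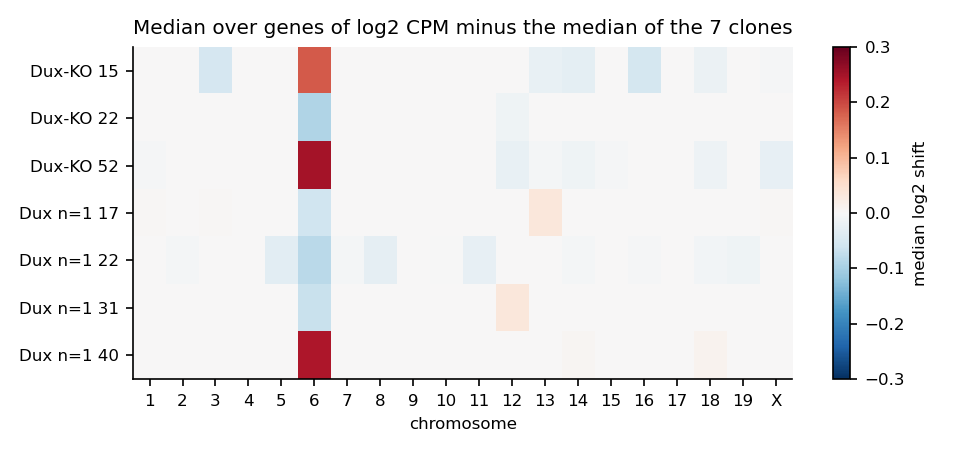
Heat map of the median over genes of log2(CPM + 0.5) minus the median of the 7 clones, by clone (rows) and chromosome (columns). Chromosome 6 is raised in Dux-KO 15 (0.18), Dux-KO 52 (0.25) and the library labelled Dux n=1 40 (0.24).

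The second was a cluster of zinc-finger genes on chromosome 4 (GRCm38 chr4:145510759-147809788), a stretch chosen after its values were seen. Of 16 measured Zfp and Rex2 genes there 15 were variable, and 15 were lowest in Dux-KO 15, with a median 2.11 log2 units below the clones' median (median shift -2.11). Zfp600 had 2.90, 21.4 and 17.9 CPM in the Dux-KO libraries, 31.2, 21.0, 29.4 and 21.9 CPM in the Dux n=1 libraries and 47.3 to 61.1 CPM in E14. Rex2 had 5.85 CPM in Dux-KO 15, 32.2 to 52.8 CPM in the other clones and 64.3 to 102 CPM in E14. Without Dux-KO 15, 1 of 17 was variable. These genes are near-identical copies whose reads are partly lost, and the GC and length trend of Dux-KO 15 given above moved with them.

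The third was in listed genes of the Y chromosome, of which 3 were measured and 2 were variable (against 7.47% of all measured genes). Ddx3y, an RNA helicase expressed in most male tissues, had 22.3 CPM in Dux-KO 15 and 65.4 to 83.0 CPM in the other 6 clones. Uty, a histone demethylase relative, had 8.40 CPM in Dux-KO 15 and 20.3 to 25.7 CPM in the others. Both were higher in E14, at 120 to 151 and 38.3 to 45.3 CPM. The values of Dux-KO 15 did not overlap those of any other library for either gene. Eif2s3y, the other measured gene, was not variable (SD 0.327), with 41.1 CPM in Dux-KO 15 and 58.5 to 86.8 CPM in the other clones. With the GC trend removed 1 of 3 was variable, and the part of the GC and length trends of Dux-KO 15 was not tested. Imprinted genes had 3 variable members of 21 (14.3%, against 7.47% of all measured genes). Among them was Peg10 on chromosome 6, with 208 CPM in Dux n=1 22 and 738 CPM in Dux-KO 52.

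Genes that varied between clones also responded more often to GSK-3484862 in the WT libraries, which were not used to rank them. Of the 763 variable genes 28.0% changed at least 2-fold, against 5.98% of all measured genes. By the test (edgeR, adjusted p under 0.05), 38.4% rose and 39.4% fell, against 26.7% and 38.0% of all measured genes. The 2-fold share was 23.4% without the libraries labelled Dux-KO 22 and Dux n=1 40 and 30.1% without Dux-KO 15 and Dux n=1 22. These shares are a description. Variable genes were more often lowly expressed, with 14.7% variable at 5 to 20 CPM and 2.65% at 100 CPM or more.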

How the data were processed

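The deposited values are unnormalized counts, 1 per gene of the Ensembl 84 annotation, made without multi-mapping reads and without strand, per the file headers. Overlapping, antisense and near-identical genes are therefore uncertain. Reads were processed with fastp 0.23.2, HISAT2 2.1.0, GRCm38 and featureCounts 2.0.1, and DESeq2 1.40.2 is listed, per the submitters' processing notes. Symbols came from GENCODE M21 (47310 of 47729 identifiers). No 2 libraries held identical values. Titles give no culture or batch, so p-values measure only the spread between libraries.

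The 7 libraries were fitted with edgeR 4.0.16 in R 4.3.3 (TMM, filterByExpr with minimum count 10, robust quasi-likelihood test, Benjamini-Hochberg adjustment), with DESeq2 1.42.0 as an alternative. On simulated counts for this comparison (14550 genes, 200 changed) the fit recovered 96% of changes of log2 3 and 91% of log2 2, with 6 false calls. Smaller changes, and groups with exchanged labels, were not simulated, so how many of those the fit would find is not known. Variability used a pseudocount of 0.5 CPM and a mean of 5 CPM. E14 values use factors from the 10 untreated libraries, which moved factors of the clones by up to 2.57%.

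Named genes were the 25 of largest variance, without unnamed models, pseudogenes, histone and small RNA genes. Up to 2 variable members per list (31 lists) and the 5 smallest p in each direction were added. Further list members, whether or not marked so where they are given, were chosen after their values were seen. The members and lists were chosen with earlier results of these data known. Alternatives are given in the closing section; leaving out pairs of libraries, the list alternatives and the fold limits of the label check were added after seeing the data.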

Additional observations from a re-analysis of the deposited data

Results flagged for a closer look

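Among 68 named genes, 1 library of the 4 Dux n=1 libraries lay far from the other 3 for 4 genes. Chance flags about 1 in 20 such groups, and 4 of 68 is near that rate. Most of the 68 were also named for varying between these same libraries, so that rate need not hold for them. All 4 flags were in Dux n=1 22. Anxa2, an annexin of the membrane skeleton, had 27.7 CPM there and 11.4 to 13.1 CPM in the other 3. Nr0b1 had 92.5 CPM and 208 to 244 CPM in the others. Gadd45b, a stress-induced gene, had 25.8 CPM and 11.7 to 12.8 CPM in the others. Uty had 21.1 CPM and 24.9 to 25.7 CPM in the others.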

How the results depend on the processing

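No paired analysis was possible because the 2 groups share only the clone number 22, which names unrelated lines. The count of genes called between genotypes was 0 with edgeR under RLE factors, no filter, the 10-library fit, the GC offset and every clone left out in turn, and 2 with DESeq2, where Rn7sk and Rpph1 passed. Variable genes numbered 1643 at a mean of 1 CPM, 298 at 20 CPM, 30 at an SD of 1, and 269 without Dux-KO 15 and Dux n=1 22, and 527 to 930 with 1 clone left out. The hypoxia count was 4 of 30 without Dux-KO 15 and Dux n=1 22, where 2.66% of all measured genes were variable. The ratio of clone to E14 spread was 2.68 to 3.90 with 1 E14 library left out. The correlation of the pair labelled 22 was 0.386 with the second DMSO library of each clone. The first component held 41.9% to 54.7% with 1 clone left out. The chromosome 6 range between clones, 0.34, was 0.46 at 20 CPM and 0.42 with library totals. In 1011 comparisons of a named gene's SD with the threshold of a setting, 84 moved from variable to not variable. The SD threshold of 1 was among these settings, so the 84 do not measure the processing alone. Depth limits mainly genes of 5 to 20 CPM, where counting alone gives an SD of 0.101.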
